A study of Homo sapiens with 8 samples.

Results

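Accessible chromatin was described at 10 collagen genes of the basement membrane and of network-forming collagens: COL4A1, COL4A2, COL4A3, COL4A4, COL4A5, COL4A6, COL8A1, COL8A2, COL15A1 and COL18A1. Each gene was taken with 50 kb on each side of its body, and a peak was assigned to a gene if its summit lay in that window. The 6 type IV genes form 3 neighbouring pairs, so the 10 genes fell into 7 separate loci. These held 126 of the 75501 accessible sites of the series, a site being a stretch of overlapping peaks found in at least 2 libraries. A further 34 stretches in the windows rested on 1 library and were not counted.

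The assay was ATAC-seq, the sequencing of transposase-accessible chromatin, in which a transposase cuts open DNA and each library gives a list of peaks. The cells were LX-2, an immortalised human hepatic stellate cell line of wild type genotype. They grew on fibronectin-coated polyacrylamide hydrogels, soft (about 2 kPa) or stiff (about 40 kPa), and were collected on day 2 or day 4. The 4 groups are called D2 soft, D4 soft, D2 stiff and D4 stiff, each with 2 replicate libraries. The comparison asked where accessibility differed with the stiffness of the matrix and with time in culture. All libraries came from 1 cell line. The methods of the study call the sequencing replicates biological, and the labels do not say whether they were separate cultures.

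Type IV collagen chains assemble into the sheet-like network at the core of every basement membrane, and the genes lie head to head in pairs that share the stretch between their starts. Type VIII collagen forms hexagonal networks around vessels and in remodelling tissue, and COL8A1 and COL8A2 encode its chains. Types XV and XVIII bridge basement membrane to the surrounding matrix, and a fragment of type XVIII is the angiogenesis inhibitor endostatin. In the liver, stellate cells lie in the space of Disse and are a main source of matrix, including the basement membrane-like deposit that accompanies fibrosis.

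The lists differed in length and depth. The number of peaks ranged from 29789 in D2 soft replicate 1 to 72840 in D4 stiff replicate 2, and the depth estimated from the background of each list ranged from 0.780 fragments per kb of genome in D2 soft replicate 1 to 3.15 in D4 stiff replicate 1. Promoter peaks were looked up for marker genes: of 11 stellate cell and myofibroblast markers, 5 had a peak within 1 kb of a start in every library, 3 in some and 3 (PDGFRA, DES and LRAT) in none. For 4 hepatocyte markers the counts were 0, 1 and 3, for 4 cholangiocyte markers 0, 2 and 2, for 3 endothelial markers 0, 0 and 3, and for 4 macrophage and leukocyte markers 1, 0 and 3.

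The sequences on which the results turn are given on the forward strand of GRCh37 (hg19). Capitals mark 4 motifs on either strand: AP-1 (TGACTCA or TGAGTCA), TEAD (GGAATG or CATTCC), the GC box (GGGCGG or CCGCCC) and the CCAAT box (CCAAT or ATTGG). The first 3 lie between facing starts of the type IV pairs, since these are the shared promoters. They run from the annotated end of one gene body to the facing start of the other. They lie at chr13:110959505-110959604, chr2:228029170-228029339 and chrX:107682768-107683067, the last being the 300 bases nearest to COL4A5.
COL4A1 and COL4A2 shared promoter: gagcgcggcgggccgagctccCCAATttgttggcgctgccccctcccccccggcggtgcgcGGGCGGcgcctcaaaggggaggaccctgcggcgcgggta
COL4A3 and COL4A4 shared promoter: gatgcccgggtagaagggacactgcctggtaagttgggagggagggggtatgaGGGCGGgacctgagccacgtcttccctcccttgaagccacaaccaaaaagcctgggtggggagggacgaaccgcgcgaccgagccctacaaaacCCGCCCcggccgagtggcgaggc
COL4A5 and COL4A6 shared promoter: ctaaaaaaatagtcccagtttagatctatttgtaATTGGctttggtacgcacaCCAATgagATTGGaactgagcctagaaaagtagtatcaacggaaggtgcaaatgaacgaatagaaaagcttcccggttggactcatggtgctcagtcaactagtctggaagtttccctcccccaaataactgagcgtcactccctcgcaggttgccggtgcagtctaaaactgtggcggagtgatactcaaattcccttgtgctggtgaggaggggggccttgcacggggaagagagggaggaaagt
The annotated body of COL4A2 begins at 110958159, inside COL4A1, so the first stretch also lies within that body. A COL4A4 transcript outside the basic set begins closer to COL4A3 than the start used for promoters, so the COL4A3 and COL4A4 sequence is shorter than the distance between starts given below. The content of G and C was 78% between COL4A1 and COL4A2, 65.9% between COL4A3 and COL4A4, and 48.3% between COL4A5 and COL4A6. The first stretch held 1 GC box and 1 CCAAT box, the second 2 GC boxes, and the third 3 CCAAT boxes and no GC box.

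The next 2 sequences show 100 bases on each side of the summit at the best ranked site of all loci, in an intron of COL15A1 (chr9:101751973-101752173), and at the site that spans the COL8A1 start (chr3:99356217-99356417).
COL15A1 intron: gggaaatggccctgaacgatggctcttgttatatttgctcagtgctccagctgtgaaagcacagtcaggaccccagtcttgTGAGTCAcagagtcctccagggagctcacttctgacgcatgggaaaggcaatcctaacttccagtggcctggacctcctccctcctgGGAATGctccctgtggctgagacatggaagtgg
COL8A1 upstream: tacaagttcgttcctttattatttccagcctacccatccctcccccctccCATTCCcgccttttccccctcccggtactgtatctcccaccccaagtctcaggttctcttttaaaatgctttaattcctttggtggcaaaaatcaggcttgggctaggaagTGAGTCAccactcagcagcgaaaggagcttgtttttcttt
Each of these held 1 AP-1 and 1 TEAD motif.

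The last 5 sequences show sites whose peaks were found in one group and not in another. They are a site beyond the end of COL4A1 (chr13:110765666-110765866), 2 in introns of COL4A2 (chr13:110964985-110965185 and chr13:111095792-111095992), 1 in an intron of COL8A1 (chr3:99370488-99370688) and 1 in an intron of COL15A1 (chr9:101761193-101761393).
Beyond COL4A1, stiff-only on day 2: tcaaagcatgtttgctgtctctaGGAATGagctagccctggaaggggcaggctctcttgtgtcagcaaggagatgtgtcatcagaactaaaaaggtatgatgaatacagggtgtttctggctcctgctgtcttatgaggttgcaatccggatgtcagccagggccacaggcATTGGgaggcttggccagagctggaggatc
COL4A2 intron, stiff-only on day 4: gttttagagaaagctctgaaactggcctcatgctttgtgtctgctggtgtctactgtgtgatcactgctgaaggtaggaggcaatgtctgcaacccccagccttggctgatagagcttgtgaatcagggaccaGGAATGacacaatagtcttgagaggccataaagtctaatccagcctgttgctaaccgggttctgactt
COL4A2 intron, soft-only on day 4: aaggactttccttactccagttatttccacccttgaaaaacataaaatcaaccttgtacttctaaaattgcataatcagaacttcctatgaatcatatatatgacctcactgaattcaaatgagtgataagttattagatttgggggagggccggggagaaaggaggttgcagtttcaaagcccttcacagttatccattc
COL8A1 intron, stiff-only on day 4: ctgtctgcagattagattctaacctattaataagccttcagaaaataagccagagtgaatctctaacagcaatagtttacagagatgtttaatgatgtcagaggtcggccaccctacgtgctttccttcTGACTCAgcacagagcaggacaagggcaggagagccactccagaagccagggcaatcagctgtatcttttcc
COL15A1 intron, all stiff and no soft: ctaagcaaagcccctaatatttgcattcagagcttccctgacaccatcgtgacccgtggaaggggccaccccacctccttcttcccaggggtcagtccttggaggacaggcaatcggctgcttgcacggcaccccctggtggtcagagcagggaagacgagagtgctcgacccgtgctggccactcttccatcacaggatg
The site beyond COL4A1 held 1 TEAD motif and 1 CCAAT box, the first COL4A2 intron 1 TEAD motif and the COL8A1 intron 1 AP-1 motif. The soft-only COL4A2 site and the COL15A1 site held none of the 4 motifs.

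Promoters of the collagen genes carried weak peaks, and most carried them in some libraries only. A promoter was counted as open in a library if a summit lay within 1 kb of a transcript start. Only COL4A5 and COL4A6, the pair that shares 1 promoter on the X chromosome, had such a peak in all 8 libraries. COL4A3 and COL4A4, the chains of the glomerular basement membrane, had one in 6 libraries, COL8A2 and COL18A1 in 4, COL4A1 and COL4A2 in 3, COL8A1 in 2 and COL15A1 in 1. Within 500 bp the counts fell to 3 for COL4A3, 5 for COL4A4, 1 for COL8A2 and 0 for COL15A1 and COL18A1, and those of the other 5 genes were the same. Of all 20136 protein-coding genes, 42.9% had a promoter peak in every library, against 2 of these 10, which share that peak. Within 500 bp the values were 36.9% and 2 of 10, and within 2 kb 46% and 3 of 10, COL8A1 being added. With every list cut to the 29789 best peaks by −log10 p, the length of the shortest list, the 2 genes of the X chromosome pair had a promoter peak in 1 library and the other 8 genes in 0. That library was D2 soft replicate 1, whose list is the shortest and so was not cut. Its peak stood at top 99.6% of that list. The peak of D4 stiff replicate 1, at top 45.4% of its full list, fell just outside the cut.

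The shared promoter of COL4A5 and COL4A6 (site chrX:107682693-107683730) ranked from top 45.4% to 99.6% of the lists. Peaks were ranked within each list by −log10 p and the rank is given as the top share of that list. Its rank was top 99.6% and 63.5% in the D2 soft libraries and 81.2% and 49.0% in D2 stiff. On day 4 it was 58.2% and 91.8% in soft and 45.4% and 75.6% in stiff. Soft and stiff libraries overlapped on both days. By the fold enrichment of the summit over the local background, day 2 gave 3.08, 7.11, 5.22 and 8.74, and day 4 gave 6.81, 3.84, 8.77 and 5.79, in the same order of libraries.

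The shared promoter of COL4A1 and COL4A2 (chr13:110959039-110960386), the genes of the ubiquitous type IV network, had a peak in D2 soft replicate 2 at top 89.3% and in both D4 stiff libraries at top 76.3% and 69.7%. It had none in the D2 stiff and D4 soft libraries, so that it was stiff-only on day 4 but not on day 2. The facing starts of the basic transcript set lie 101 bp apart, and those of COL4A4 and COL4A3 419 bp apart. A site at the latter (chr2:228028251-228029441) had peaks in D2 stiff replicate 2 and in all 4 day 4 libraries, at top 78.2% to 94.2%. A second site inside COL4A3 (chr2:228029658-228029954), 549 bp after its start, had peaks in D2 stiff replicate 1 and D4 stiff replicate 2 only. Taken as 1 promoter, the pair had a peak in all 4 stiff libraries and in both D4 soft libraries, and in neither D2 soft library.

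The start of COL8A1, a chain of type VIII collagen and a gene the study itself chose to display on these samples, lay within a merged site that had a peak in every library, although not every one of these peaks reached the start. In 4 libraries a peak covered the start itself. The site (chr3:99355935-99357603) ranked on day 2 at top 19.3% and 45.5% in soft and 47.6% and 52.0% in stiff. On day 4 the soft libraries had it at top 62.6% and 82.3%, the stiff ones at 40.3% and 34.3%. Its best summit lay 1002 bp upstream of the nearest start, just past the 1 kb limit, so that the stricter count above gave COL8A1 only 2 libraries, both stiff. Within 2 kb of a start the count was 8 libraries, and with any base of the peak within 1 kb, a rule added after seeing the data, it was also 8. By −log10 p both D4 stiff libraries ranked this site higher than both D4 soft libraries, while on day 2 both soft libraries ranked it higher than both stiff ones. By fold enrichment the day 4 groups were also apart, and on day 2 they overlapped, with top 30.6% and 68.4% in soft and 67.5% and 78.9% in stiff. The share of all sites separated in this way was not computed. In the limma fit described below, the stiff minus soft difference at this site was not called on either day. It was -1.09 ± 0.526 (SE) on day 2 (adjusted p 0.646 by limma) and 0.587 ± 0.526 on day 4 (adjusted p 0.952). The interaction of stiffness and day was not called either (adjusted p 0.92). The summit in D2 stiff replicate 2 lay at position 99357342, about 1 kb from those of the other libraries. Cut to equal length, the lists had the site as stiff-only on day 4, with peaks also in both D2 soft libraries and in D2 stiff replicate 1. The study displays COL8A1 as a primed locus, more accessible on the stiff matrix on day 2 and upregulated by day 4. That classification came from read counts in peaks, so the within-list ranks of this merged site are another measure.

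COL8A2, the other type VIII chain, had its promoter site (chr1:36565119-36565799) at an internal start, in D2 stiff replicate 1, D4 soft replicate 1 and both D4 stiff libraries, at top 68.3% to 96.5%. COL18A1 had its promoter site (chr21:46825543-46826367) in D2 soft replicate 2, D2 stiff replicate 1 and D4 stiff replicate 1, at top 81.5% to 96.2%. A further peak beside it in D4 soft replicate 2 alone, at top 88.9%, brought the gene to 4 libraries. COL15A1 had a promoter peak in D2 stiff replicate 2 alone, at top 90.3%. Where a library had no peak at these starts, none was detectable at its depth.

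**Figure D1:**
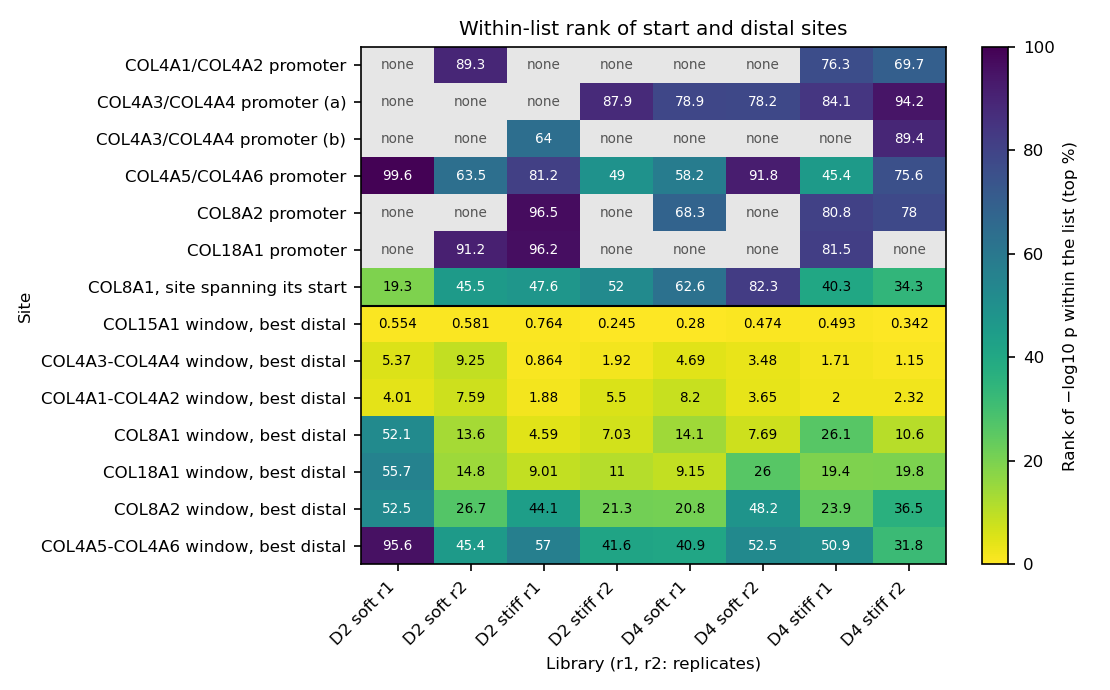
Within-list rank by −log10 p (top % of the list, low values are the strongest peaks) of the sites at the starts of the genes (above the line) and of the best ranked distal site of each locus in every library (below), for 8 libraries; "none" marks a library without a peak. The sites classed as promoters reach at best top 45.4% of a list, the site spanning the COL8A1 start runs from top 19.3% to 82.3%, and the best COL15A1 site is within the top 0.764% of every list.

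Other basement membrane genes were looked up for comparison. The set also held genes not confined to basement membrane, such as SERPINH1 and COL10A1, and keeps that name below. Of the 20 genes, 9 had a promoter peak in every library (LAMA2, LAMB2, LAMB3, LAMC1, NID1, NID2, SPARC, SERPINH1 and COL7A1), 6 in some and 5 in none, among them LAMA5, AGRN and COL10A1. With equal list length LAMB2, a laminin chain, NID2, a nidogen that links laminin to type IV collagen, SPARC, a collagen-binding matricellular protein, SERPINH1, the collagen chaperone, and COL7A1, the anchoring fibril collagen, still had it in all 8 libraries. PXDN, the peroxidase that crosslinks type IV collagen, had a promoter peak in 7 libraries, and HSPG2, the core protein of perlecan, in 1. Of 11 fibrillar collagen genes, COL5A2 had one in every library, 5 in some and 5 in none. So promoter peaks in every library were found for 2 of 10, 9 of 20 and 1 of 11 genes within 1 kb of a start. Within 500 bp the counts were 2, 4 and 1, and within 2 kb 3, 11 and 3. LAMA5 went from 0 libraries within 1 kb to 8 within 2 kb, and AGRN from 0 to 4.

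Outside the promoters, the loci held a few strong sites among many of ordinary rank. Of the 126 sites, 79 lay in an intron of a listed gene, 2 in an exon, 6 at a promoter of a listed gene, 12 at a promoter of another gene, 10 in the body of another gene and 17 between protein-coding genes. Promoter sites of any gene made up 14.3% of them, against 22.1% of all sites. The median rank of the 6 collagen promoter sites was top 79.7%, that of the 79 intronic sites top 65.0%, and that of the 12 promoters of neighbouring genes top 44.4%. Over all sites of the series the medians were top 41.3% at promoters and 62.0% elsewhere. The 108 collagen sites outside promoters had a median of top 63.65%. Of these, 6 (5.56%) had a mean rank in the top 10%, against 4.01% of all sites outside promoters.

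**Figure D2:**
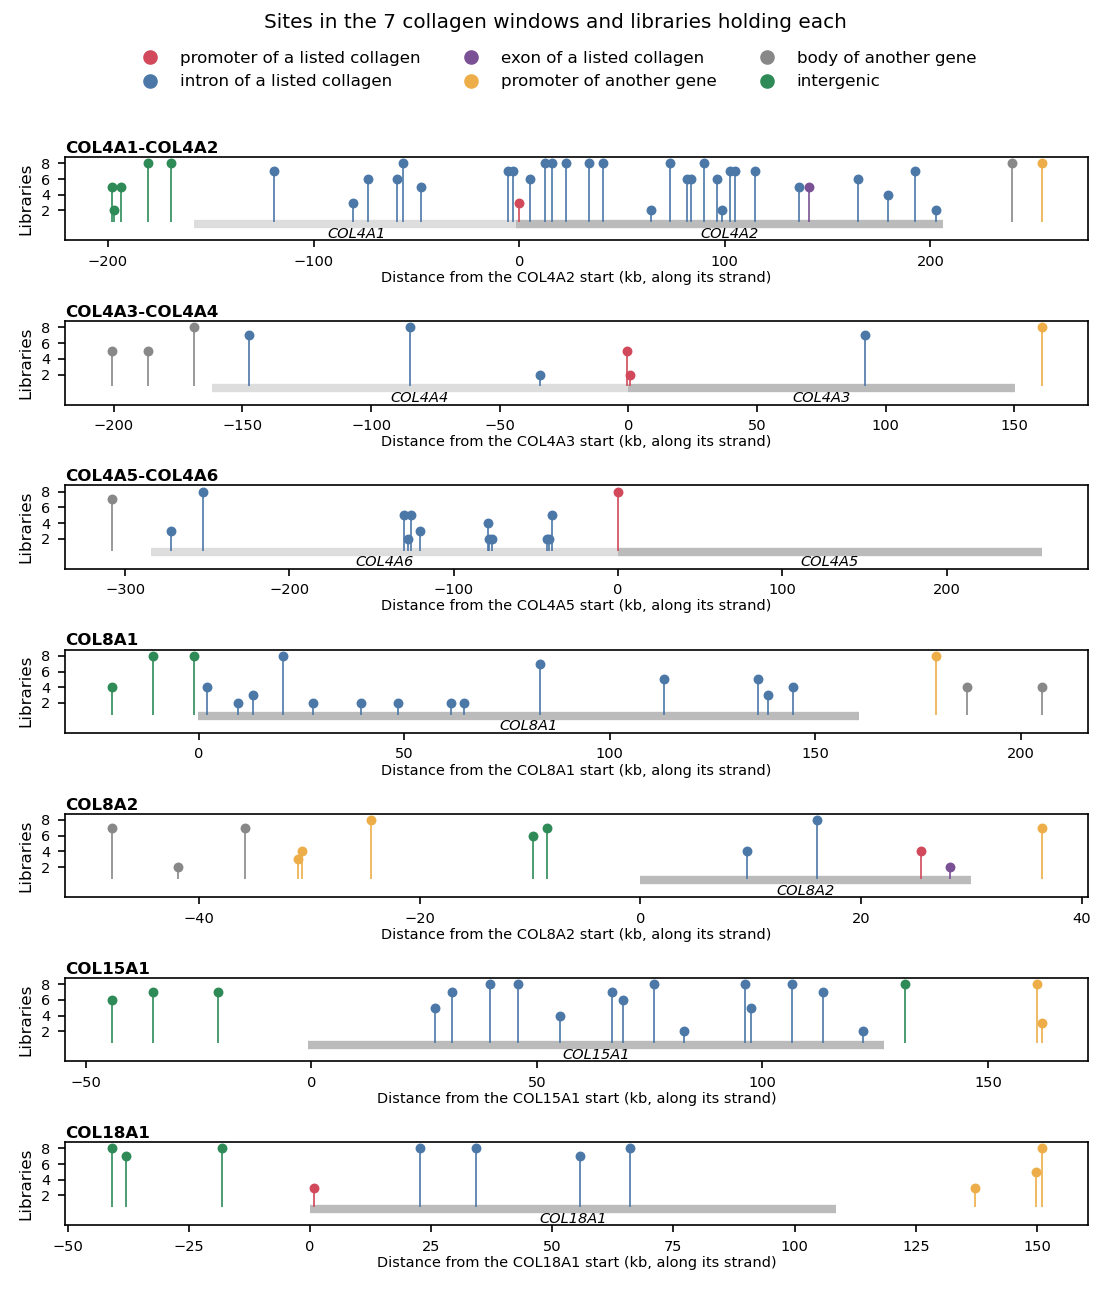
Position of the 126 sites relative to a gene start (kb along the strand of the named gene; negative values are upstream) and number of libraries with a peak (0 to 8), one panel for each locus; grey bars are the gene bodies and colours give the class of the site. COL4A2 and COL15A1 carry runs of intronic sites found in 8 libraries, while the body of COL4A5 holds no site beyond its promoter.

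Sites with a peak in every library numbered 36 (28.6%), against 32.1% of all sites. The number of sites for each 100 kb of window was 10 at COL8A2, 9.11 at COL4A2, 8.79 at COL15A1, 7.75 at COL4A1, 7.67 at COL8A1, 5.27 at COL18A1, 3.65 at COL4A6, 3.06 at COL4A4, 2.00 at COL4A3 and 1.12 at COL4A5. The median of the 10 was 6.47, against 3.93 over protein-coding genes, 5.97 over the 20 other basement membrane genes and 4.64 over the fibrillar collagens. COL4A1, COL4A2, COL8A1, COL8A2, COL15A1 and COL18A1 were above the median of protein-coding genes, and the 4 genes of the other type IV pairs were below it. The windows include 50 kb on each side, so sites of neighbouring genes count, most of all in the short COL8A2 window. Windows of paired type IV genes overlap, so some sites count for both genes of a pair.

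The best ranked site of all loci lay in an intron of COL15A1, the type XV collagen gene (chr9:101751509-101752476), 45884 bp from the nearest start. On day 2 it ranked at top 0.554% and 0.581% in soft and at 0.764% and 0.245% in stiff. On day 4 the soft libraries had it at top 0.280% and 0.474% and the stiff ones at 0.493% and 0.342%. Its fold enrichment in the same order was 13.1 and 13.8, 15.7 and 17.3, 15.4 and 12.7, and 14.2 and 16.0. The groups overlapped by both measures. COL15A1 held 7 sites in every library among its 20, although its own start had a peak in 1 library alone. A second strong site lay between COL15A1 and TGFBR1, the type I TGF-β receptor gene (chr9:101837511-101838444), at top 0.898% to 5.29% of the lists. Another was intronic (chr9:101781666-101782619), at top 3.96% to 9.03%.

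The COL4A1 and COL4A2 locus held 38 sites, of which 12 were in every library, and 8 of the 12 were intronic. The best lay in an intron of COL4A2 (chr13:110993015-110993952), 33691 bp from the nearest start, at top 1.88% to 8.20% of the lists. Other COL4A2 introns followed at chr13:110999717-111000741 (top 2.06% to 19.3%), chr13:111048913-111050051 (top 2.28% to 22.9%) and chr13:110975422-110975942 (top 3.93% to 24.4%). COL4A1 itself held 1 intronic site in every library (chr13:110902620-110903774), at top 15.6% to 31.4%. The strong distal sites of this pair thus lay mainly on the COL4A2 side of the shared promoter.

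The other type IV pairs were sparse. The best site in the COL4A3 and COL4A4 window lay in the body of a neighbouring gene, RHBDD1 (chr2:227859710-227860972), at top 0.864% to 9.25%. Within the pair, the only site in every library was in an intron of COL4A4 (chr2:227944196-227944926), at top 28.3% to 79.4%. In the COL4A5 and COL4A6 window, 12 of 14 sites were intronic and all 12 lay in COL4A6, while the whole body of COL4A5 held none. The best of them (chrX:107429965-107430573) ranked at top 31.8% to 95.6%.

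In the COL8A1 window, the best distal site in every library was intronic (chr3:99377101-99378373), 20638 bp from the nearest start. It ranked at top 52.1% in D2 soft replicate 1, the shallowest library, and at top 4.59% to 26.1% in the other 7. COL8A1 held 20 sites, of which only 4 were in every library. COL8A2 held 13 sites, of which 2 were in every library: an intronic one (chr1:36574464-36575178) at top 20.8% to 52.5% and the promoter of TRAPPC3, a neighbouring trafficking gene (chr1:36614833-36616883), at top 1.94% to 9.35%. COL18A1 held 11 sites, of which 6 (54.5%) were in every library, the best of them distal to its starts in an intron (chr21:46847312-46847991) at top 9.01% to 55.7%.

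Group-only sites, those with a peak in both libraries of one group and in neither of the other, lay on the stiff side more often than on the soft side. On day 2, stiff-only sites numbered 11 of the 126 (8.73%) and soft-only sites 0, against 7.45% and 0.391% of all sites. On day 4, 13 (10.3%) were stiff-only and 2 (1.59%) soft-only, against 6.72% and 1.31%. The stiff lists were longer than the soft lists of the same day, and the counts are given without a test. Without D2 soft replicate 2, the stiff-only count of day 2 was 37 (29.8%, against 29.7% of all sites). It was 23 without D2 stiff replicate 1 (18.9% against 14.9%) and 19 without D2 stiff replicate 2 (15.8% against 12.4%). Without D4 soft replicate 1, the stiff-only count of day 4 was 27 (22.5% against 15.6%). Without D2 soft replicate 1, the shallowest library, the soft-only count of day 2 was 6 (4.8% against 4.7%).

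In lists of equal length the excess of stiff-only sites was smaller. Of the 60 collagen sites left, 3 (5.00%) were stiff-only and 2 (3.33%) soft-only on day 2, against 4.06% and 3.24% of all sites. On day 4, 3 were stiff-only and 0 soft-only (0%), against 3.0% and 2.81%. The share of group-only sites thus moved with list length, and its part in the result was not tested beyond this setting.

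**Figure D3:**
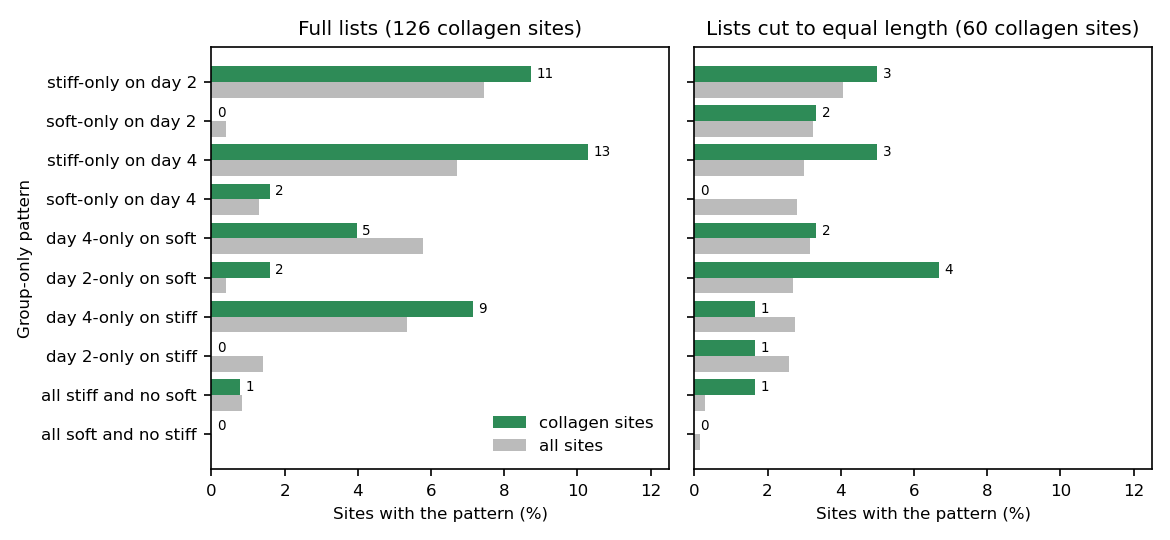
Share of sites with each group-only pattern (%, horizontal axis) among the collagen sites (green, with the number of sites) and among all sites (grey), in full lists and in lists of equal length. Stiff-only sites outnumber soft-only sites in full lists, 11 to 0 on day 2 and 13 to 2 on day 4, and by 3 to 2 and 3 to 0 in lists of equal length.

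With time in culture, 5 collagen sites (3.97%) of the soft matrix had peaks on day 4 alone and 2 (1.59%) on day 2 alone, against 5.79% and 0.403% of all sites. For the stiff matrix these counts were 9 (7.14%) and 0, against 5.35% and 1.41%. At equal list length these 4 counts were 2, 4, 1 and 1, against 3.16%, 2.70%, 2.75% and 2.59% of all sites, so that the surplus of day 4 sites was not seen there. Without D2 soft replicate 2 the day 4-only count on soft was 28 (22.6%, against 26% of all sites), and without D4 soft replicate 2 it was 20 (16.3% against 13.6%). Without D2 soft replicate 1 the day 2-only count on soft was 11 (8.8% against 5.41%). The day 4-only count on stiff was 19 without D2 stiff replicate 2 (15.8% against 12.8%).

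The stiff-only sites are given by locus, and no difference between loci was tested. Over all sites, 7.45% were stiff-only on day 2 and 6.72% on day 4. Of the 11 on day 2, 7 lay in the COL4A1 and COL4A2 window, which held 38 of the 126 sites. Another 2 lay at COL8A1, 1 at COL4A3 and COL4A4 and 1 at COL15A1. Of the 13 on day 4, 6 lay at COL8A1, which made up 6 of its 20 sites, 3 at COL4A1 and COL4A2, 2 in introns of COL4A6, 1 at the promoter of MAP7D1 near COL8A2 and 1 at COL15A1. COL18A1 had none on either day. The day 4 count at COL8A1 was 3 without D4 stiff replicate 2 and 1 in lists of equal length, where 8.48% and 3.0% of all sites were stiff-only. The 7 of day 2 at COL4A1 and COL4A2 became 16 without D2 soft replicate 2 and 1 in lists of equal length. The shares of all sites there were 29.7% and 4.06%.

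The 6 COL8A1 sites of day 4 were weak. Their mean ranks lay between top 72.6% and 97.1%, and 3 of them had peaks in the D4 stiff libraries alone (chr3:99366511-99367243, chr3:99405565-99406060 and chr3:99421930-99422299), with 6 to 12 fragments at the summit. The number of fragments was worked out from the deposited fold enrichment and p-value. The best ranked of the 6 (chr3:99370088-99370702), whose sequence is given above, had 12 fragments in D2 stiff replicate 2, 25 and 8 in D4 stiff and no peak in the soft libraries. COL8A1 also held a soft-only site on day 4 (chr3:99396851-99397165), with 5 and 6 fragments and no peak in any other library. On day 2 its best stiff-only site (chr3:99501823-99502360) had 17 and 18 fragments in D2 stiff, 10 in D4 soft replicate 2 and 21 in D4 stiff replicate 2.

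At COL4A1 and COL4A2 the best ranked stiff-only site of day 2 lay beyond the end of COL4A1 (chr13:110765417-110766041). It had 19 and 27 fragments at its summit in D2 stiff, 21 in D4 soft replicate 1, and 37 and 36 in D4 stiff, with no peak in the other 3 soft libraries. Its rank was top 40% and 39.5% in D2 stiff, 47.7% in D4 soft replicate 1 and 33.8% and 28.1% in D4 stiff. With equal list length it was the 1 collagen site (1.67%) with a peak in all 4 stiff libraries and in no soft one, a pattern of 0.279% of all sites there. All 4 stiff libraries ranked the site above D4 soft replicate 1, the 1 soft library that had it in full lists. The peak of that library, at top 47.7% of its full list, fell just outside the equal-length cut.

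Of the other stiff-only sites of day 2 at this locus, 3 lay in introns of COL4A2 (chr13:111042763-111043781, chr13:111055444-111056267 and chr13:111124045-111124507) and were found in all 6 libraries other than D2 soft. They were therefore also among the 5 sites that the soft matrix had on day 4 and not on day 2. The best ranked stiff-only site of day 4, in a COL4A2 intron 5381 bp from its start (chr13:110964656-110965257), had peaks in 6 libraries and was missing from both D4 soft libraries alone. It had 8 and 18 fragments in D2 soft, 22 and 24 in D2 stiff, and 27 and 22 in D4 stiff. The opposite was seen at 1 COL4A2 intron (chr13:111095422-111096163), soft-only on day 4, with 6 and 17 fragments in D2 soft, 13 and 11 in D4 soft, 11 in D2 stiff replicate 2 and no peak in the other 3 stiff libraries.

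A peak in all 4 stiff libraries and in no soft library was found at 1 of the 126 sites (0.794%), against 0.85% of all sites. It lay in an intron of COL15A1 (chr9:101761102-101761559), with 8 and 11 fragments in D2 stiff and 12 and 11 in D4 stiff, at top 70.5% to 78.3% of the lists. The opposite pattern, all soft and no stiff, was found at 0 sites, against 0.0172%. In full lists the count of the first pattern was 5 without D4 soft replicate 1 (4.17%, against 2.11% of all sites) and 3 without D2 soft replicate 2 (2.42% against 1.7%). The stronger COL15A1 intron described above had a peak in every soft and every stiff library, so that the gene held both kinds of site.

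**Figure D4:**
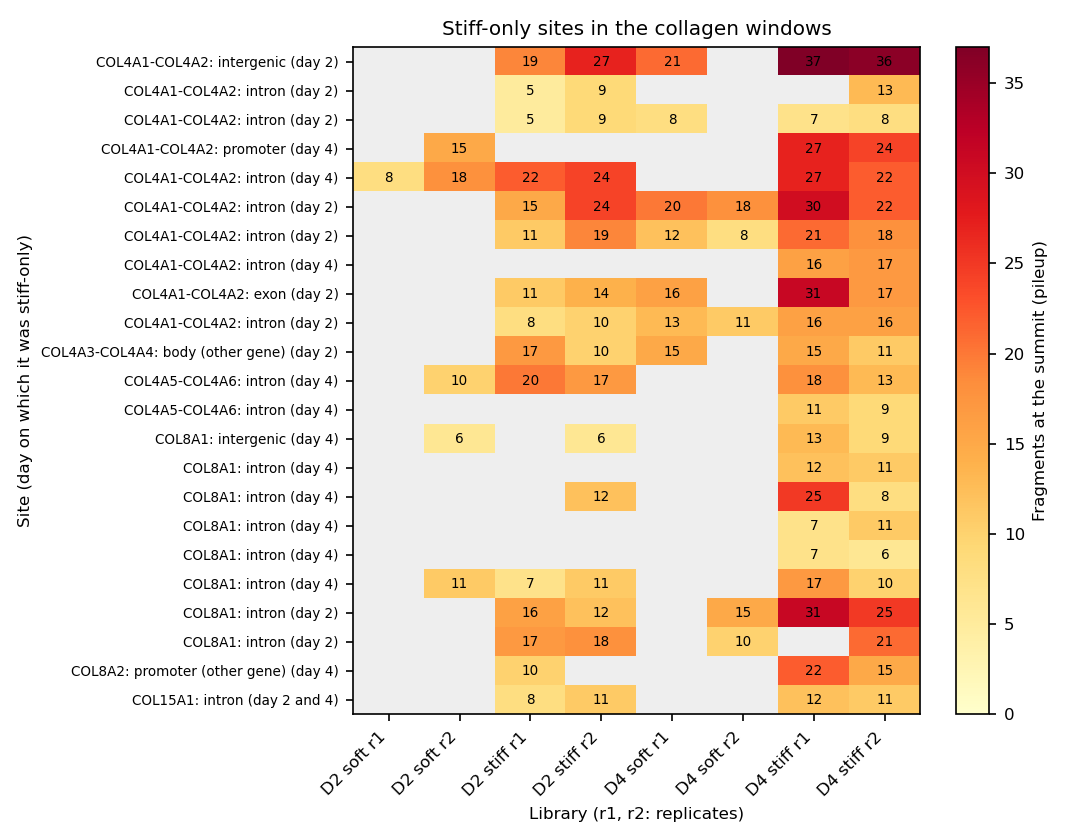
Number of fragments at the summit (colour and digits) of the 23 sites that were stiff-only on day 2 or day 4, by library; grey cells have no peak, and the label gives the locus, the class and the day. The values run from 5 to 37 with a median of 14, and the site beyond COL4A1 in the first row has the highest.

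Peaks in the 7 windows numbered 45 and 87 (soft) against 98 and 103 (stiff) on day 2, and 97 and 84 against 110 and 120 on day 4. Every stiff library had more than every soft library. For each 1000 peaks of the list the values were 1.51 and 1.56, 1.65 and 1.62, 1.53 and 1.49, and 1.67 and 1.65, again without overlap. How often other sets of windows separate by either measure was not computed, so neither separation can be judged against a share. In lists of equal length the counts were 45 and 47, 49 and 48, 44 and 45, and 51 and 46, so that D4 stiff replicate 2 lay below D2 soft replicate 2. The group means on full lists were 66.0 ± 29.7 for soft and 100.5 ± 3.54 for stiff on day 2 (SD, n = 2), and 90.5 ± 9.19 and 115.0 ± 7.07 on day 4.

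**Figure D5:**
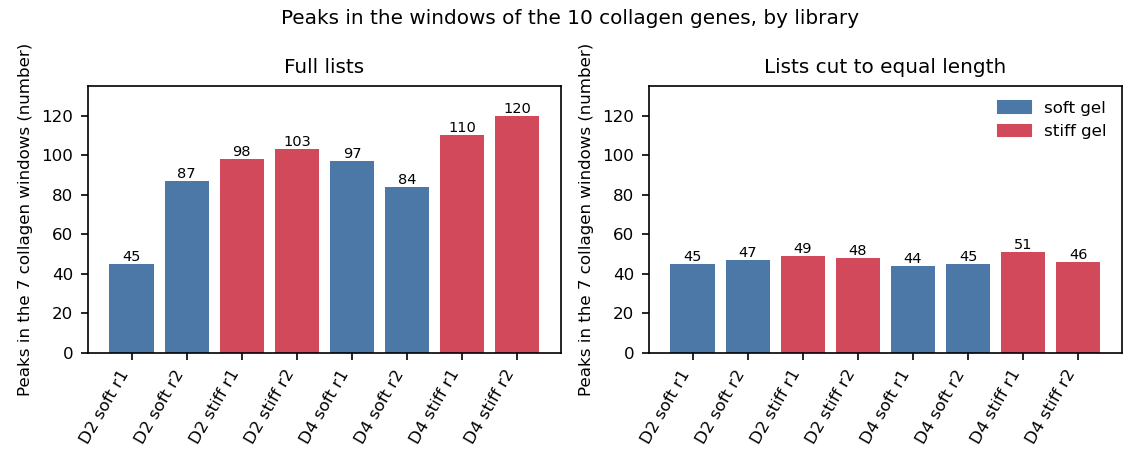
Number of peaks in the 7 collagen windows in each library (bars start at 0; blue, soft; red, stiff), in full lists and in lists cut to the 29789 best peaks. Full lists run from 45 to 120 peaks with every stiff bar above every soft one, and lists of equal length from 44 to 51 with overlap.

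Gene by gene, the windows of COL4A1 and COL8A2 had more peaks in every stiff library than in every soft one. COL4A1 had 9, 17, 16 and 12 peaks in the soft libraries and 18, 19, 19 and 20 in the stiff libraries. COL8A2 had 2, 9, 9 and 8 against 12, 11, 12 and 12. The peaks of the COL8A2 window were not confined to that gene. Of its 13 sites, 4 lay at promoters of other genes, 3 in bodies of other genes and 2 between genes. Peaks within COL8A2 itself were not compared as a separate count. The other 8 genes overlapped, and 0 were higher in every soft library. Over 19424 protein-coding genes with a peak in the window, 5.27% were higher in every stiff library and 0% in every soft one. At equal list length 0 of the 10 genes separated in either direction, against 0.62% and 0.391% of genes. COL4A1 and COL8A2 remained separated when any one library was left out, as leaving a library out cannot undo a separation. Without D4 soft replicate 1 COL4A2 and COL15A1 joined them, making 4. Without D2 stiff replicate 1, D2 stiff replicate 2 or D4 stiff replicate 1 the count was 3. With windows of 10 kb on each side COL4A1 and COL15A1 separated, and COL8A2 did not. Without D2 soft replicate 1, COL4A5 was higher in every soft library. With a library left out any gene separates more easily. The share of all protein-coding genes was not computed with a library left out or with 10 kb windows, so these counts cannot be judged against it. Of the 20 other basement membrane genes, LAMA5 and HSPG2 were higher in every stiff library in full lists.

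At the 36 collagen sites with a peak in every library, no difference in peak strength between the groups was called. The 24246 sites of this kind were ranked in every library by fold enrichment, turned into normal scores and compared with limma, a site being called at a Benjamini-Hochberg adjusted p under 0.05. Of the 36 sites, 0 were called for stiff against soft on day 2, on day 4 or averaged over days, for day 4 against day 2, or for the interaction of stiffness and day. Over all sites the calls were 0.00412%, 0.00825%, 0.00825%, 0% and 0%. At an unadjusted p under 0.05 the numbers of collagen sites were 5, 2, 2, 4 and 2 of 36, against 7.65%, 5.35%, 7.72%, 6.91% and 5.27% of all sites. With ranks of −log10 p in place of fold enrichment 0 of the 36 were called either. Without D2 soft replicate 2 the fit called 359 sites of the series on day 2, of which 0 were collagen sites, while 12 of the 36 (33.3%) had an unadjusted p under 0.05, against 17.5% of all sites.

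The 3 collagen sites with the lowest p are given as not called. An intron of COL18A1 (chr21:46890751-46891594) ranked by fold enrichment at top 86.1%, 85.8%, 87.7% and 63.4% in the soft libraries and at top 55.0%, 41.2%, 34.6% and 44.6% in the stiff ones. All 4 stiff libraries ranked it higher, with a score 1.11 ± 0.354 (SE) above soft averaged over days and an adjusted p of 0.444 by limma. A site upstream of COL8A1 (chr3:99345606-99346593) ranked at top 16.2%, 24.2%, 26.3% and 19.8% in soft and at top 38.8%, 50.2%, 25.3% and 45.9% in stiff, with a difference of stiff minus soft of -0.86 ± 0.349 (SE) and an adjusted p of 0.59 by limma. By these ranks in the whole lists the groups overlapped there through D4 stiff replicate 1. The scores came from ranks among the 24246 sites only. By score the groups were narrowly apart, at -0.037 or above in soft and -0.067 or below in stiff. The promoter of CMSS1, a gene beyond the end of COL8A1 (chr3:99535980-99537237), had a day 2 difference of -1.26 ± 0.493 and an adjusted p of 0.559 by limma. This difference was -1.72 without D2 soft replicate 1 and -0.79 without D2 soft replicate 2.

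Motifs were searched on both strands within 100 bases of each summit. The AP-1 motif was found at 35 of the 108 collagen sites outside promoters (32.4%), against 36.0% of all such sites, and the TEAD motif at 28 (25.9%), against 21.7%. At the 18 promoter sites in the windows the GC box was found at 11 (61.1%), against 50.3% of all promoter sites. The loci differed: at COL4A1 and COL4A2 15 of 38 sites (39.5%) held the TEAD motif and 6 (15.8%) the AP-1 motif, while at COL8A1 4 of 20 (20%) held TEAD and 9 (45%) AP-1. Over all 75501 sites, 19.1% held the TEAD motif and 30.2% the AP-1 motif. COL8A2 held no TEAD motif at its 13 sites. These counts describe letters near summits of few sites, and no difference between loci was tested.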

How the data were processed

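ATAC-seq peak lists of 8 libraries were used. According to the submitters' processing notes and the methods of the study, reads were trimmed with Trim Galore, aligned to hg19 with Bowtie2 2.4.1 and peaks were called for each library with MACS2 at a q-value up to 0.05. Picard and bedtools 2.24.0 are also named. Replicates were not pooled, and the handling of transposase offsets is not given in the sources used here. The authors deposited, for each peak, a fold enrichment (a ratio of the summit pileup to the local background), the −log10 p-value and −log10 q-value, a score and the summit offset (other), with no header. The score was not used. These values are comparable within a list only, so ranks were used. No read counts were used here, so depth was estimated from each list: the whole-number pileup and background that give both deposited values were found for all but 14 of 466883 peaks, and the lowest background was divided by the width of the shortest peak.

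All 24 chromosomes of the lists lie within the GRCh37 lengths. Peaks overlapping by 1 bp were merged. Starts came from the GENCODE release 44 basic set on GRCh37 (110213 starts). Members, gene lists and tests were chosen with earlier results of these data known. Sites named singly were every promoter site of a listed gene, the best ranked distal site of each locus in every library, the best ranked group-only site of each locus and pattern, and the 3 sites with the lowest limma p. Sequences followed for promoters in every library and group-only sites; the other sequences and sites were chosen after their values were seen. The promoter rule on any base of a peak was added after seeing the data. Normal scores were fitted with limma 3.58.1 in R 4.3.3 (4 group means, 5 contrasts). The fit was also run on simulated data with counting noise alone. Those data had no other variation between replicates, so they do not show what the fit can find in the real lists. One marker, PECAM1, was not looked up. One result on a comparison gene is not reported here.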

Additional observations from a re-analysis of the deposited data

Results flagged for a closer look

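Within the 4 soft or the 4 stiff libraries, a library was marked where its gap to the nearest other, as a share of the whole range, was above Dixon's critical value, which chance does for about 1 in 20 groups of 4. Of 46 groups tested, 13 were marked, most of them small whole numbers in which the other 3 libraries tied. In full lists D2 soft replicate 1, the shallowest library, stood low among the soft libraries at COL4A5 (1 peak against 3), COL8A2 (2 against 8 to 9), COL15A1 (9 against 16 to 17) and COL18A1 (6 against 10). At equal list length the same library stood high at COL4A3 (3 against 1), COL4A5 (1 against 0) and COL4A6 (4 against 2). D2 stiff replicate 2 stood low among the stiff libraries in full lists at COL8A2 (11 against 12) and COL18A1 (8 against 11), and in lists of equal length at COL8A1 (4 against 6). In lists of equal length D4 stiff replicate 1 had 1 peak at COL4A6 against 2, D4 soft replicate 1 had 3 at COL8A1 against 4, and D4 stiff replicate 2 had 10 at COL15A1 against 9. The low values of D2 soft replicate 1 in full lists bear on the COL8A2 comparison above. Its groups did not overlap without that library either, as leaving a library out cannot undo a separation.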

How the results depend on the processing

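In lists of equal length the collagen sites fell to 60, and the group-only counts were 3 (stiff-only, day 2), 2 (soft-only, day 2), 3 (stiff-only, day 4), 0 (soft-only, day 4), 2 (day 4-only, soft), 4 (day 2-only, soft), 1 (day 4-only, stiff) and 1 (day 2-only, stiff), and 0 genes separated by window count. With a peak in at least 1 replicate of one group and none of the other, the counts in the same order were 31, 7, 27, 7, 25, 12, 14 and 5, with 10 sites in stiff and not soft libraries and 1 the other way round. As shares of the collagen sites they were 24.6%, 5.56%, 21.4%, 5.56%, 19.8%, 9.52%, 11.1% and 3.97%, then 7.94% and 0.794%. Over all sites the shares in that order were 20.1%, 5.45%, 14%, 4.43%, 18.4%, 6.1%, 11.7% and 4.47%, then 6.99% and 0.96%. With 100 kb on each side, 1 site was day 2-only on stiff (0.61%, against 1.41% of all sites). A further 3 were in all stiff and no soft libraries (1.83% against 0.85%). With q up to 0.01, 1 site was day 2-only on soft (0.806% against 0.338%) and 3 genes separated by window count. Leaving out 1 library in turn gave 115 to 125 sites, of which 36 to 54 were in every remaining library. The group-only ranges, in the order above, were 11 to 37, 0 to 6, 13 to 27, 2 to 4, 5 to 28, 2 to 11, 6 to 19 and 0 to 5, with 1 to 5 in all stiff and no soft libraries and 0 to 1 the other way. Fewer libraries are asked for there, so more sites qualify. At the highest counts, with the larger share where tied, the collagen shares were 29.8%, 4.8%, 22.5%, 3.42%, 22.6%, 8.8%, 15.8% and 4.1%. Over all sites they were 29.7%, 4.7%, 15.6%, 2.98%, 26%, 5.41%, 12.8% and 2.67%. For all stiff and no soft and the other way, the shares were 4.17% and 0.833%, against 2.11% and 0.0262%. Window counts separated 2 to 4 genes with stiff higher and 0 to 1 with soft higher. For window counts the share of all protein-coding genes was computed for full and equal-length lists of all libraries only. The limma fits called 0 collagen sites in each case. With the replicate number as a replicate block, 0 collagen sites were called in the 5 contrasts, and 1, 2, 2, 0 and 0 sites of the series. The deviations of same-numbered libraries correlated at -0.0415 to 0.0837, so the numbers were not taken to pair them. Replicate numbers follow the labels, and the names inside the deposited lists carry another number in 5 of 8 libraries, so the block rests on the labels alone. Weak promoters and group-only sites are limited by depth, and D2 soft replicate 1 is the shallowest list.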
